A study of Homo sapiens with 9 samples.

Results

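Kinesins are motor proteins that step along microtubules, and the kinesin genes were taken here as those whose symbol begins KIF followed by a number, together with the 4 kinesin light chain genes KLC1 to KLC4. The array's annotation named a row for 43 such genes, out of 14884 genes with a single symbol. Of the 43, 14 were grouped as mitotic, 17 as cargo transport and 12 as other kinesins (cilia, microtubule dynamics or no assigned role). Each gene was read from its brightest row, and 41 of the 43 lay above the limit for dim genes, a mean log2 level of 4.5 over all arrays. KIF5C (4.03 to 4.43) and KIF6 (3.36 to 4.22) lay below it and were not tested.

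HT-29 cells, an established epithelial line from a human colon adenocarcinoma, were measured on Affymetrix whole-transcript arrays 24 h after treatment. The groups were cells given the vehicle (called untreated in the labels), cells given rosemary extract, a plant extract rich in polyphenols, and cells given carnosic acid, a phenolic diterpene of rosemary. Each group had 3 arrays, called biological replicates by the series' design text, and all cells came from the same line. No concentration is stated in the labels, so whether the treatments match in dose is unknown.

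Values are RMA levels on a log2 scale, on which a difference of 1 is a 2-fold change. RMA gives no detection call, and a level cannot be compared between genes because each row has its own probes. Array medians lay between 4.824 and 4.897 over all rows, and arrays of a group correlated at 0.991 or above. Of 9 colon epithelial markers 8 had a row above the dim limit, among them EPCAM (mean 11.36 in untreated cells) and KRT18 (12.59). Summed over the 8, the log2 level spanned 13.60 to 13.66 in untreated cells, 13.42 to 13.55 with the extract and 13.62 to 13.64 with carnosic acid, and VIL1, an actin bundler of the brush border, fell by 1.29 with the extract and by 0.35 with carnosic acid. KRT20, a keratin of differentiated colon epithelium in the same list, rose by 0.77 and 0.88. Of the 6 fibroblast markers 2 had a row, DCN and LUM, both under the limit. Of the 6 leukocyte markers 2 had a row, both above the limit. CD68 (mean 7.94 in untreated cells), also a lysosomal protein of other cells, rose by 1.89 with the extract and 1.24 with carnosic acid. LYZ (mean 12.43 in untreated cells) changed by -0.26 and -0.08. Of the 5 ciliated-cell markers 2 were tested, and their list summed to 7.21 to 7.25 in untreated cells, 6.84 to 6.93 with the extract and 6.89 to 7.20 with carnosic acid. FOXJ1 changed by -0.495 with the extract and -0.35 with carnosic acid, and RSPH1 by -0.21 and -0.11. The part of these changes in the kinesin results was not tested.

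Kinesins turn ATP hydrolysis into movement or into loss of tubulin from microtubule ends. One branch of the family works in dividing cells, where it sets up the bipolar spindle, moves chromosomes, trims microtubule ends and builds the midzone at which the cells separate. Many of these genes are transcribed mainly in G2 and mitosis. The other large branch carries vesicles, mitochondria, endosomes and ciliary cargo in non-dividing and dividing cells alike, often with light chains or adaptor proteins that bind the cargo.

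The mitotic kinesins fell with rosemary extract. Of the 41 kinesins tested 21 were called, 6 higher and 15 lower, where 38.1% of all genes tested were called in either direction. Of 14 tested, 13 were called lower and 0 higher, where 16.3% of all 11163 genes tested were called lower in this comparison. A call is an adjusted p under 0.05 from limma with Benjamini-Hochberg adjustment over those genes, two-sided. The median log2 change of the 14 was -1.82, and that of all genes tested was -0.02. Groups did not overlap, with the extract lower, for 13 of the 14 and for 21.7% of all genes. In RNA from whole cultures, fewer dividing cells and less of these transcripts per cell cannot be told apart. The same count of 13 was found without any 1 of the 9 arrays.

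**Figure D1:**
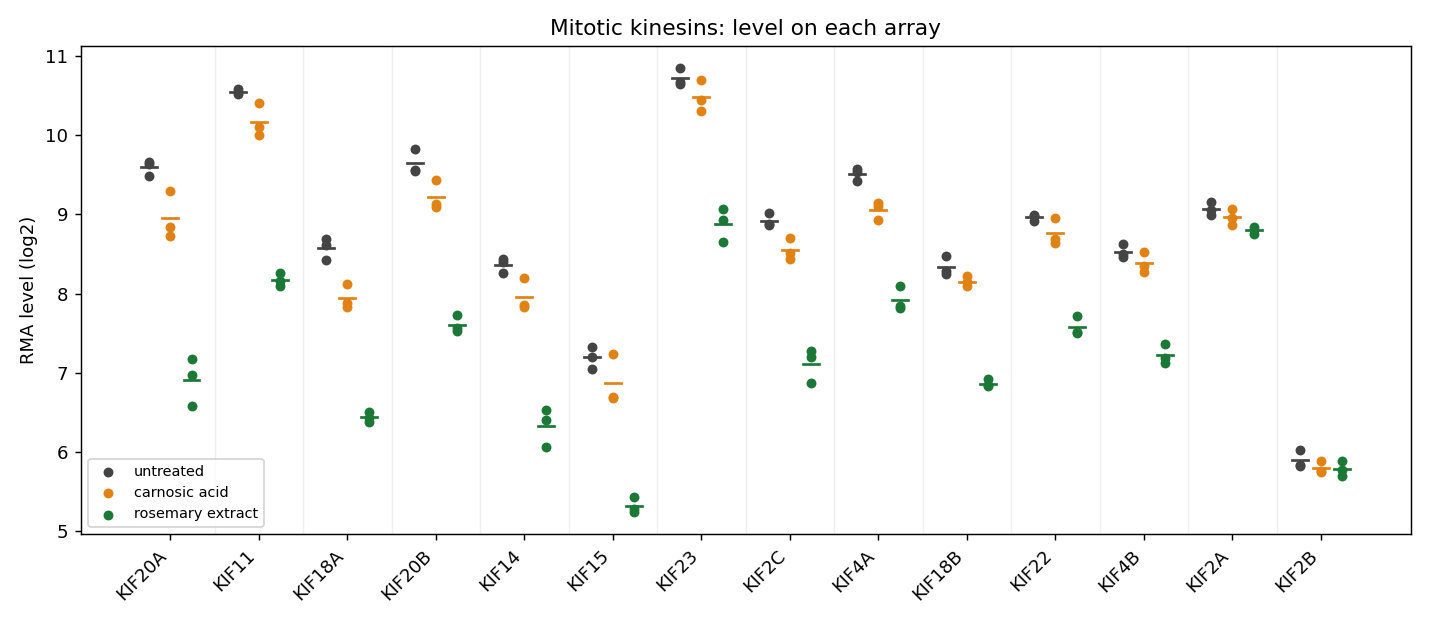
Log2 RMA level of the 14 mitotic kinesins on each array, in order of their change with rosemary extract. Points are arrays (3 per group), bars are group means; the extract arrays lie below all untreated arrays for every gene except KIF2B.

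Motors of the spindle poles and of antiparallel microtubules come first. KIF11, also called Eg5, is a tetramer that slides antiparallel microtubules apart and is needed for a bipolar spindle. Its levels were 10.54, 10.51 and 10.58 in untreated cells, 8.26, 8.10 and 8.16 with rosemary extract, and 9.99, 10.10 and 10.40 with carnosic acid. The 3 groups did not overlap, and the extract arrays were the lowest by far. KIF11 fell by 2.37 ± 0.09 (log2, SE) with the extract, a 5.17-fold difference (limma adjusted p = 1.35e-08), and by 0.38 ± 0.09 with carnosic acid (limma adjusted p = 0.0126). KIF15, which can share the work of KIF11 in holding the spindle open, read 7.05, 7.20 and 7.32 in untreated cells, 5.28, 5.44 and 5.24 with the extract, and 6.69, 6.68 and 7.24 with carnosic acid. The third carnosic acid array lay within the untreated range. KIF15 fell by 1.87 ± 0.14 with the extract (limma adjusted p = 1.16e-06), and its change with carnosic acid was -0.32 ± 0.14 (limma adjusted p = 0.144).

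The kinesins of cytokinesis included the largest fall of the family. KIF20A, also called MKLP2, brings the chromosomal passenger complex to the central spindle. It read 9.63, 9.48 and 9.66 in untreated cells, 6.97, 7.17 and 6.58 with the extract, and 8.72, 8.85 and 9.29 with carnosic acid. The 3 groups again lay apart. KIF20A fell 6.42-fold with the extract (log2 -2.68 ± 0.16, SE, limma adjusted p = 1.96e-07) and 1.55-fold with carnosic acid (-0.64 ± 0.16, limma adjusted p = 0.0166). KIF23, also called MKLP1, is the motor subunit of the centralspindlin complex. Its levels were 10.65, 10.67 and 10.84 in untreated cells, 9.07, 8.92 and 8.65 with the extract, and 10.30, 10.44 and 10.70 with carnosic acid. Only the extract arrays lay outside the untreated range on every array, and KIF23 changed by -1.84 ± 0.12 with the extract (limma adjusted p = 3.04e-07) against -0.24 ± 0.12 with carnosic acid (limma adjusted p = 0.184).

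KIF14 and KIF20B act late in division as well, in midbody formation and abscission. KIF14 read 8.40, 8.26 and 8.43 in untreated cells, 6.53, 6.41 and 6.06 with the extract, and 7.83, 7.85 and 8.19 with carnosic acid. KIF20B read 9.55, 9.56 and 9.83 in untreated cells, 7.72, 7.53 and 7.57 with the extract, and 9.13, 9.09 and 9.43 with carnosic acid. For both genes the carnosic acid arrays lay between the other groups without overlap. The log2 changes with the extract were -2.03 ± 0.13 (SE) for KIF14 and -2.04 ± 0.10 for KIF20B. With carnosic acid they were -0.41 ± 0.13 (limma adjusted p = 0.0471) and -0.43 ± 0.10 (limma adjusted p = 0.0142).

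With the extract, kinesins that bind chromosome arms fell by less than the motors above, a difference that was not tested. KIF4A, a chromokinesin that also limits microtubule growth at the midzone, read 9.54, 9.58 and 9.42 in untreated cells, 7.81, 7.84 and 8.09 with the extract, and 8.92, 9.11 and 9.14 with carnosic acid. It fell by 1.60 ± 0.09 (log2, SE) with the extract and by 0.46 ± 0.09 with carnosic acid (limma adjusted p = 0.00356). KIF22, also called Kid, pushes chromosome arms toward the spindle equator. Its levels were 8.98, 8.99 and 8.91 in untreated cells, 7.51, 7.51 and 7.71 with the extract, and 8.63, 8.69 and 8.96 with carnosic acid, so the third carnosic acid array overlapped the untreated ones. KIF22 changed by -1.39 ± 0.09 with the extract and by -0.20 ± 0.09 with carnosic acid (limma adjusted p = 0.146). KIF4B is a near-identical copy of KIF4A, so RNA of KIF4A can add to its row and its values are uncertain as those of a separate gene. The KIF4B row read 8.46, 8.63 and 8.50 in untreated cells, 7.37, 7.13 and 7.18 with the extract, and 8.34, 8.27 and 8.53 with carnosic acid, with changes of -1.30 ± 0.09 and -0.15 ± 0.09 (limma adjusted p = 0.278).

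The microtubule-depolymerising kinesins did not move as 1 group. KIF18A, which dampens chromosome movement at the plus ends of kinetochore microtubules, read 8.61, 8.42 and 8.69 in untreated cells, 6.50, 6.43 and 6.38 with the extract, and 7.88, 7.83 and 8.12 with carnosic acid. Its fall with carnosic acid, 0.63 ± 0.09 (log2, SE, 1.55-fold), had the smallest adjusted p among the mitotic kinesins in that comparison (limma adjusted p = 0.000804). With the extract KIF18A fell by 2.14 ± 0.09. KIF18B, which works on astral microtubules, read 8.25, 8.28 and 8.48 in untreated cells, 6.84, 6.92 and 6.83 with the extract, and 8.09, 8.14 and 8.22 with carnosic acid. Its carnosic acid arrays all lay below the untreated arrays, yet the change of -0.19 ± 0.08 did not pass (limma adjusted p = 0.115), while that with the extract was -1.47 ± 0.08.

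The kinesin-13 genes KIF2A, KIF2B and KIF2C differed from each other. KIF2C, also called MCAK, removes wrongly attached microtubules at the centromere, and read 9.02, 8.88 and 8.86 in untreated cells, 7.28, 7.20 and 6.87 with the extract, and 8.51, 8.44 and 8.70 with carnosic acid. It fell 3.49-fold with the extract and by 0.37 ± 0.11 (log2, SE) with carnosic acid (limma adjusted p = 0.0306). KIF2A acts at spindle poles and also outside mitosis, for example in neurons and at cilia. KIF2A read 9.15, 8.996 and 9.06 in untreated cells, 8.76, 8.84 and 8.80 with the extract, and 8.95, 8.87 and 9.06 with carnosic acid. The fall of KIF2A with the extract was 1.203-fold, the smallest of the 13 called (log2 -0.27 ± 0.07, limma adjusted p = 0.00676). KIF2B did not pass in any comparison. It changed by -0.11 with the extract (95% interval -0.31 to 0.09), with levels between 5.69 and 6.03 on all 9 arrays.

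With the extract 12 of the 14 mitotic kinesins fell by more than 2-fold. Their promoters were also read, and any part of promoter letters in the changes was not tested. RefSeq (GRCh38.p14) start sites matched 35 of the 43 kinesins, including all 14 mitotic ones, and each window ran from 250 bases before a start to 50 after it. Promoters of cell cycle genes that peak in G2 and mitosis are known for CCAAT boxes, bound by NF-Y, and for a cell cycle homology region, with the letters TTTGAA or TTCGAA, a little downstream. Both strands were searched. TTCGAA reads the same on both strands, and a CCAAT match can share its last base with a TTTGAA match, which none of the promoters printed here shows. The mitotic set had 15 windows, of which 10 held CCAAT, 9 held TTTGAA and 2 held TTCGAA. Those 2 are overlapping windows of KIF22 that hold the same TTCGAA site, so they count 1 gene and 1 site. Among all 35116 windows in the table the shares were 34.6%, 15.2% and 1.45%. A window with CCAAT and either of the other motifs was found 9 times in those 15, and in 6.38% of all windows. The motifs were not particular to the kinesins. Genes of the spindle partner list, described further below, had 23 windows for 20 genes. Of these windows 17 held CCAAT, 18 TTTGAA and 2 TTCGAA, and 15 held CCAAT with either of the others.

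Shown are 4 mitotic promoters with both kinds of motif, 150 bases up to the base before the start, 5′ to 3′ on the strand of the gene. Capitals mark the 3 motifs, on whichever strand they lie, so that a CCAAT box on the opposite strand appears as its reverse complement. KIF11 lies at chr10:92592980-92593129, plus strand, KIF18A at chr11:28108157-28108306, minus strand, KIF4A at chrX:70289954-70290103, plus strand, and KIF22, at the more upstream of 2 starts, at chr16:29790601-29790750, plus strand.
KIF11: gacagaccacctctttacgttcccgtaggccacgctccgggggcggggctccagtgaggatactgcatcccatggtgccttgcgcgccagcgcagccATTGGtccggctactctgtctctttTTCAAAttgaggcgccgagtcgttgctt
KIF18A: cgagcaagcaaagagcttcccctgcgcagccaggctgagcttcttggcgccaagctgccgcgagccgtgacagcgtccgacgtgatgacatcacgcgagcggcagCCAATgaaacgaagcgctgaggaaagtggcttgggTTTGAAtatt
KIF4A: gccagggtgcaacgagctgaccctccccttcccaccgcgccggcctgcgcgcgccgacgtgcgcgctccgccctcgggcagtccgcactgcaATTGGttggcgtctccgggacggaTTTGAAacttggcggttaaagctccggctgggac
KIF22: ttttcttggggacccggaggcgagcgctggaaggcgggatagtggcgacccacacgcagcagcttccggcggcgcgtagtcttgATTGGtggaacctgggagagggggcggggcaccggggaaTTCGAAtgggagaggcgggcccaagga
In KIF11 the CCAAT match began 53 bases before the start and the TTTGAA match 28 bases before it. The distances were 45 and 10 bases in KIF18A, 58 and 34 in KIF4A, and 66 and 27 (TTCGAA) in KIF22. In all 4 the CCAAT match lay upstream of the other.

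Other windows of the mitotic set lacked that pair of motifs. KIF15 held TTTGAA, 35 bases before the start, and no CCAAT. KIF20A (chr5:138178962-138179111, plus strand) held 2 CCAAT matches and neither of the other letters in its window. KIF2C (chr1:44739687-44739836, plus strand) held none of the 3.
KIF20A: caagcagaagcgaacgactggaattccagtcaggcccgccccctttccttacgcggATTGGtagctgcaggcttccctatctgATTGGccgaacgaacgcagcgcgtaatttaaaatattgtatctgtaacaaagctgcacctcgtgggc
KIF2C: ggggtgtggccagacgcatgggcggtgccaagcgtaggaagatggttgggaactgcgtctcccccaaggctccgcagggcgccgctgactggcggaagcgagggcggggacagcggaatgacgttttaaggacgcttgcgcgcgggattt
A match describes letters in a window and is neither a binding site nor a cause. KIF2A and KIF2B likewise held none of the 3 motifs.

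Cargo-transport kinesins went both ways with the extract, and most did not pass. Of 16 tested, 5 were called higher, 1 lower and 10 not at all, against 21.8% of all genes called higher and 16.3% lower. Their median log2 change was 0.08, with a range from -0.25 to 0.90. The mitotic and transport classes were compared by these counts and medians, with no test of the difference between them. Without rosemary extract replicate 1 only 3 transport members were called higher, since KLC1 and KIF13B lost their calls.

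**Figure D2:**
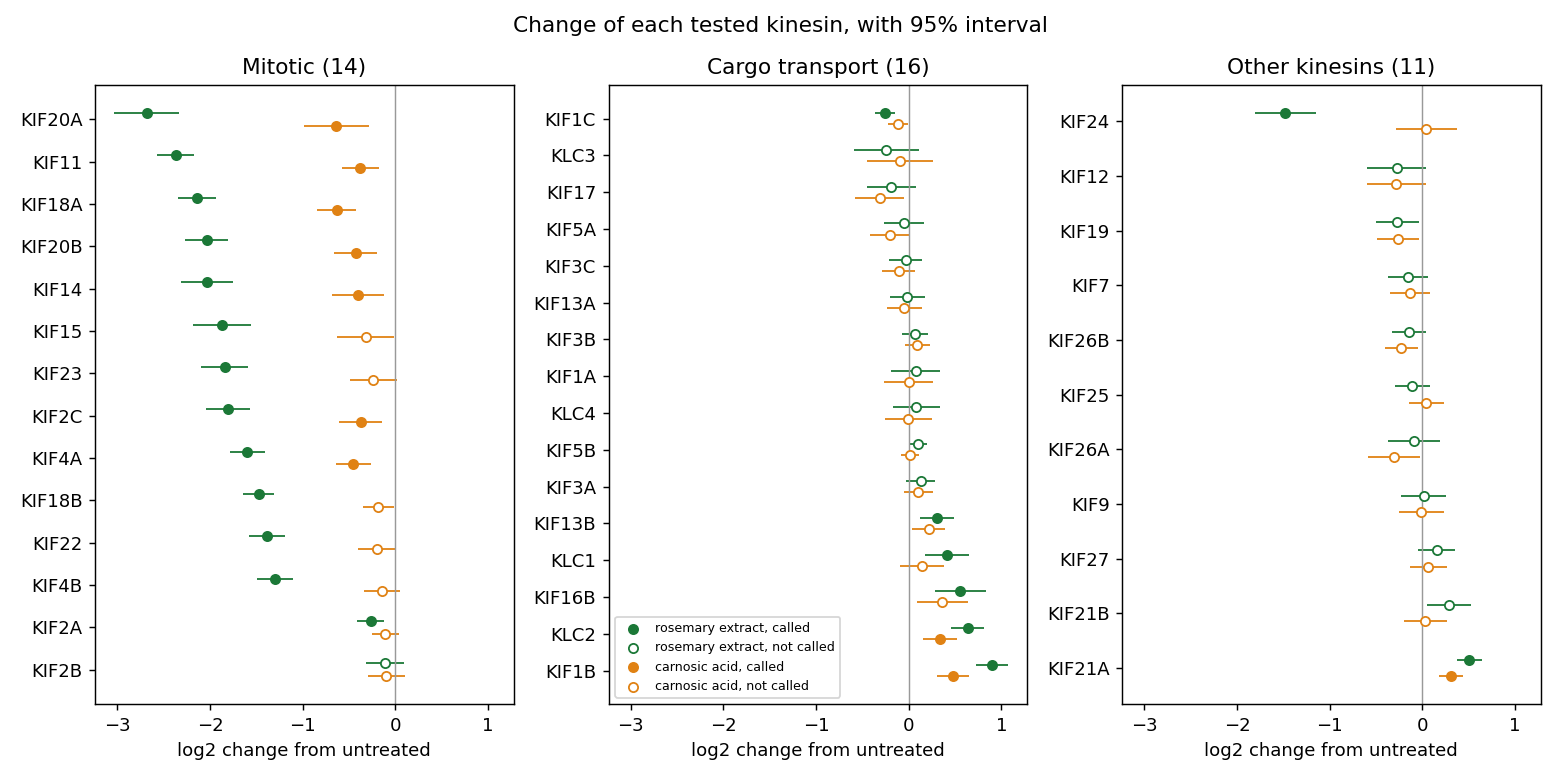
Log2 change from untreated cells of the 41 tested kinesins with rosemary extract (green) and carnosic acid (orange), by class, with 95% intervals from limma; filled points were called at an adjusted p under 0.05. The mitotic panel holds 13 called falls with the extract, and the transport panel 5 called rises and 1 called fall.

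Kinesin-1, the conventional motor, is a pair of heavy chains from KIF5A, KIF5B or KIF5C with 2 light chains that bind cargo. Its ubiquitous heavy chain KIF5B read 11.03, 10.95 and 11.05 in untreated cells, 11.15, 11.13 and 11.06 with the extract, and 11.05, 11.02 and 11.01 with carnosic acid. Its change with the extract was 0.10 ± 0.04 (log2, SE, limma adjusted p = 0.0894). KIF5A, a neuronal heavy chain, lay near the dim limit, between 4.26 and 4.69, and did not pass in any comparison.

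Of the 4 light chain genes, KLC1 and the brighter row of KLC2 were called higher with the extract. The brightest KLC2 row read 7.56, 7.74 and 7.44 in untreated cells, 8.16, 8.25 and 8.23 with the extract, and 8.005, 7.91 and 7.83 with carnosic acid, with no overlap between the 3 groups. It rose by 0.63 ± 0.08 (log2, SE) with the extract (limma adjusted p = 8.07e-05) and by 0.34 ± 0.08 with carnosic acid (limma adjusted p = 0.0146). The latter call was lost without carnosic acid replicate 1 (limma adjusted p = 0.0682) and under cyclic loess scaling (limma adjusted p = 0.0605). A dimmer KLC2 row went the other way: 5.82, 6.21 and 6.24 in untreated cells, 5.58, 5.62 and 5.51 with the extract, and 5.66, 5.55 and 5.23 with carnosic acid. With the mean of both rows the KLC2 changes were 0.06 (limma adjusted p = 0.696) and -0.14 (limma adjusted p = 0.370), the highest adjusted p-values of all alternatives for each, whose lowest were 3.94e-05 and 0.00563. The direction for KLC2 against untreated cells therefore holds for its brighter row only.

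KLC1, the other broadly used light chain gene, read 7.70, 7.92 and 7.67 in untreated cells, 8.27, 8.33 and 7.92 with the extract, and 7.97, 7.92 and 7.82 with carnosic acid. The groups overlapped for KLC1, and its rise of 0.41 ± 0.11 (log2, SE) passed with the extract (limma adjusted p = 0.0110) but not without rosemary extract replicate 1 (0.0513) or replicate 2 (0.0567), in a range of 0.000923 to 0.0567 over all alternatives. KLC3 and KLC4 did not pass in any comparison.

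Kinesin-3 motors are fast carriers of vesicles, endosomes and mitochondria. KIF1B, whose splice forms carry mitochondria and synaptic vesicle precursors, had the largest rise of the family when each gene was read from its brightest row. Its brightest row read 8.10, 8.16 and 8.20 in untreated cells, 9.20, 9.05 and 8.89 with the extract, and 8.67, 8.55 and 8.67 with carnosic acid. No groups overlapped, and KIF1B rose 1.86-fold with the extract (log2 0.90 ± 0.08, SE, limma adjusted p = 3.63e-06) and 1.39-fold with carnosic acid (0.48 ± 0.08, limma adjusted p = 0.00150). A dimmer KIF1B row changed by 0.03 and -0.21. With the mean of both rows KIF1B rose by 0.46 with the extract (limma adjusted p = 0.000603), while 0.13 with carnosic acid did not pass (limma adjusted p = 0.281), the highest adjusted p of the alternatives for each, whose lowest were 1.30e-06 and 0.000719.

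KIF16B, an endosome motor, read 6.77, 6.43 and 6.70 in untreated cells, 7.24, 7.32 and 7.01 with the extract, and 7.21, 6.80 and 6.98 with carnosic acid. Both treatments lay above the untreated arrays, and only the extract's change passed: 0.55 ± 0.13 (log2, SE, limma adjusted p = 0.00427) against 0.36 ± 0.13 (limma adjusted p = 0.0686). With carnosic acid KIF16B was called in 2 of 17 alternatives, with limma adjusted p-values from 0.0395 to 0.247 over all of them. KIF13B, which carries signalling and polarity proteins, rose by 0.30 ± 0.08 with the extract (limma adjusted p = 0.0123). That call was lost without untreated replicate 2 (0.0503) or rosemary extract replicate 1 (0.0556), in a range of 0.00224 to 0.0556. KIF13A, its close relative in membrane traffic, did not pass.

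KIF1C, which carries vesicles and integrins and moves between the Golgi and the cell edge, was the only transport kinesin called lower with the extract. It read 9.37, 9.39 and 9.29 in untreated cells, 9.11, 9.08 and 9.09 with the extract, and 9.20, 9.26 and 9.23 with carnosic acid, and the 3 groups did not overlap. Its fall was 0.25 ± 0.05 (log2, SE, limma adjusted p = 0.00157) with the extract. With carnosic acid it changed by -0.12 ± 0.05 (limma adjusted p = 0.129). KIF1A, a mainly neuronal kinesin-3, did not pass in any comparison. Kinesin-2 motors, which carry ciliary and other cargo, gave no call: KIF3A, KIF3B, KIF3C and KIF17 each had an adjusted p of 0.0922 or above in all 3 comparisons.

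**Figure D3:**
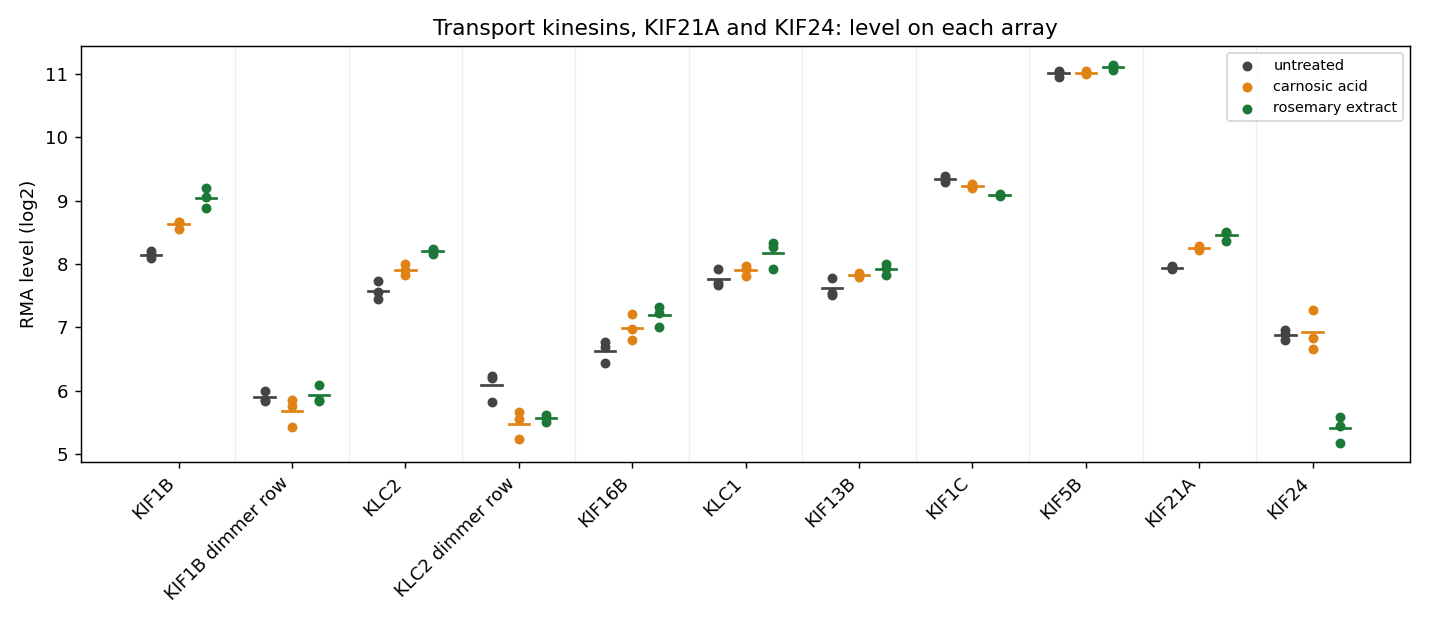
Log2 RMA level on each array of 7 transport kinesins and of KIF21A and KIF24, with the dimmer rows of KIF1B and KLC2; points are arrays, bars are group means. The brighter KLC2 row rises from untreated to extract arrays (mean 7.58 to 8.21) while its dimmer row falls (6.09 to 5.57).

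Promoters of 13 of the 17 transport kinesins were in the table, with 18 windows. CCAAT was found in 5 of these, TTTGAA in 1 and TTCGAA in 0. The window with TTTGAA was that of KIF5B (chr10:32056426-32056575, minus strand), where it lay 140 bases before the start, upstream of a CCAAT match at 59 bases, in the opposite order to the 4 mitotic promoters above. The most upstream of 3 KIF1B starts (chr1:10210420-10210569, plus strand) is shown beside it, with 1 of the 2 CCAAT matches of its window inside these 150 bases.
KIF5B: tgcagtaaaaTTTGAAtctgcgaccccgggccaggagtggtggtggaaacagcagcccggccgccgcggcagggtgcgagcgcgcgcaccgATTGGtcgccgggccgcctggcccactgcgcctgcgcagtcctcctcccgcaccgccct
KIF1B: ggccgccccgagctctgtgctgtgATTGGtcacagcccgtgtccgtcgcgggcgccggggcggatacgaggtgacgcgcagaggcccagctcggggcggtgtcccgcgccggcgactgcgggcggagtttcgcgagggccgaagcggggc

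Among the 11 other kinesins tested, 1 was called higher (KIF21A) and 1 lower (KIF24) with the extract. Of all genes tested, 21.8% were called higher and 16.3% lower. KIF24 is a depolymerising kinesin of the centriole that holds back ciliogenesis in cycling cells. It read 6.96, 6.80 and 6.89 in untreated cells, 5.59, 5.18 and 5.44 with the extract, and 6.66, 6.83 and 7.28 with carnosic acid. KIF24 fell by 1.48 ± 0.15 (log2, SE) with the extract (limma adjusted p = 1.28e-05), a size within the range of the mitotic kinesins, whereas its carnosic acid arrays spread around the untreated ones (0.04 ± 0.15, limma adjusted p = 0.875), a value that turned negative after median centring. Its window, the only one among the other kinesins with both kinds of motif, held 3 CCAAT matches and TTCGAA at the second base after the start.

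KIF21A, which restrains microtubule growth at the cell cortex, rose with both treatments. It read 7.97, 7.95 and 7.92 in untreated cells, 8.49, 8.51 and 8.36 with the extract, and 8.28, 8.23 and 8.26 with carnosic acid. The 3 groups did not overlap, and the rises were 0.51 ± 0.06 (log2, SE, limma adjusted p = 4.10e-05) and 0.31 ± 0.06 (limma adjusted p = 0.00420). The related KIF21B did not pass (0.29 ± 0.11 with the extract, limma adjusted p = 0.0523), though it was called in 5 of 17 alternatives, with adjusted p-values from 0.0107 (without rosemary extract replicate 1) to 0.190 over all of them. The remaining 8 tested members, KIF7, KIF9, KIF12, KIF19, KIF25, KIF26A, KIF26B and KIF27, passed in no comparison of the main fit. KIF7 is a regulator of Hedgehog signalling at the cilium tip. KIF19 changed by -0.27 ± 0.10 with the extract (limma adjusted p = 0.0628). It was called in 5 of 17 alternatives, with adjusted p-values from 0.0344 to 0.182. With carnosic acid KIF26A was called in 1 of 17 alternatives and KIF26B in 1 of 16. Between the treatments KIF26A was called in 1 of 17.

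Carnosic acid gave smaller changes. Of the 14 mitotic kinesins 7 were called lower and 0 higher, where 6.12% of all genes were called lower: KIF18A, KIF20A, KIF4A, KIF20B, KIF14, KIF11 and KIF2C. Their changes ran from -0.64 to -0.37, and the median of all 14 was -0.35 against -0.01 for all genes tested. Groups lay apart, with carnosic acid lower, for 8 of the 14 and for 13.1% of all genes. Of the 16 transport kinesins 2 were called higher, KIF1B and KLC2, and 0 lower, where 12.9% of all genes were called higher. The carnosic acid arrays lay above the untreated ones for 4 of the 16 (KIF1B, KLC2, KIF13B and KIF16B) and for 19.7% of all genes, and below them for 2 (KIF1C and KIF17) and for 13.1% of all genes. The split of all calls depended on scaling: 1440 genes were higher and 683 lower as deposited, 1207 and 1098 after each array was centred on its median, and 1245 and 1022 after cyclic loess.

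The count of 7 depended on single arrays. It was 2 without carnosic acid replicate 1, 3 without carnosic acid replicate 2, and 4 without untreated replicate 1 or untreated replicate 3. Without carnosic acid replicate 3 it was 9, with KIF15 and KIF22 added. KIF18A and KIF4A were called under every alternative tried, with adjusted p-values between 0.000155 and 0.00580 and between 0.00149 and 0.0197. KIF14, at an adjusted p of 0.0471, kept its call in 8 of 17 alternatives.

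Carnosic acid replicate 3 stood apart from its group for the mitotic kinesins. Its level was the highest of the 3 carnosic acid arrays for 13 of the 14, all but KIF2B, and for 39.7% of all genes tested. Relative to the untreated mean, the median of the 14 was -0.46 in replicate 1, -0.43 in replicate 2 and -0.14 in replicate 3. No label separates that array from the others.

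**Figure D4:**
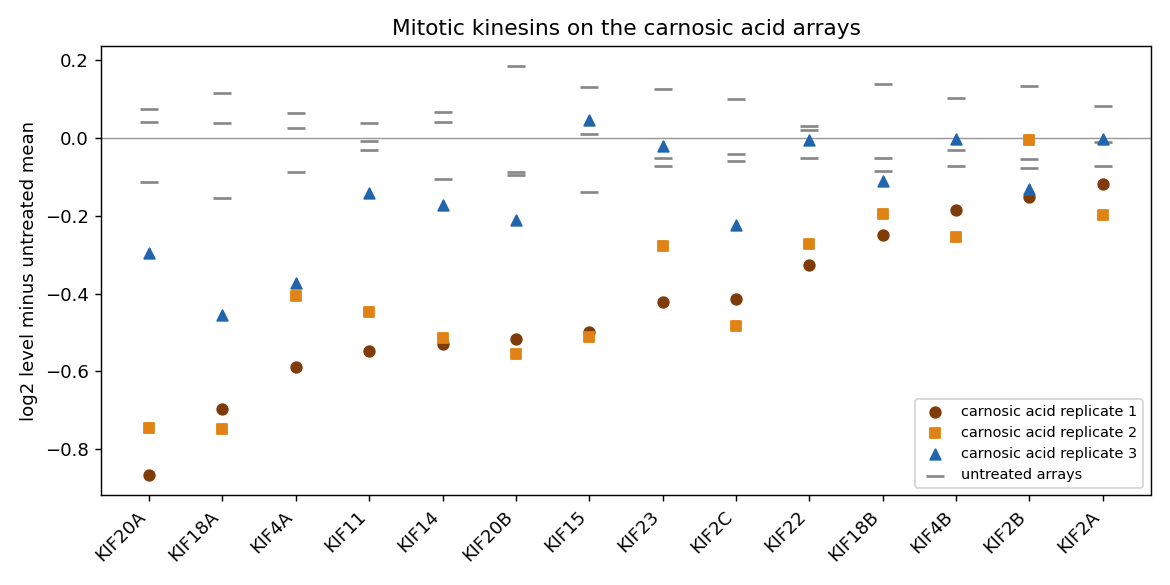
Log2 level of each mitotic kinesin on the 3 carnosic acid arrays, minus the mean of the untreated arrays (grey bars are the untreated arrays). Replicate 3 is the highest of the 3 for every gene but KIF2B, with a median of -0.14 against -0.46 and -0.43.

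Rosemary extract and carnosic acid were compared directly, over the same arrays. Of 14 mitotic kinesins 12 were lower with the extract and 0 higher, where 9.07% of all genes were called lower, and the median difference was -1.47. The differences of the 12 ran from -2.05 for KIF20A to -1.14 for KIF4A, and all 12 remained called under every alternative tried. KIF2A and KIF2B did not pass, with differences of -0.16 (95% interval -0.30 to -0.02, limma adjusted p = 0.132) and -0.01 (-0.22 to 0.19, limma adjusted p = 0.952). Outside the mitotic class KIF24 was lower with the extract by -1.52 ± 0.15 (log2 difference, SE, limma adjusted p = 3.44e-05).

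Transport kinesins differed little between the treatments. Of the 16, 2 were higher with the extract and 0 lower, where 8.24% of all genes were called higher. KIF1B was higher by 0.42 ± 0.08 (log2, SE, limma adjusted p = 0.00316). KLC2 was higher by 0.30 ± 0.08 (limma adjusted p = 0.0274), a call lost without any 1 of 5 arrays (rosemary extract replicate 1, 2 or 3, carnosic acid replicate 2 or 3). That call was also lost with the mean of both KLC2 rows (0.19, limma adjusted p = 0.233). KIF21A, among the other kinesins, was higher by 0.20 ± 0.06 (limma adjusted p = 0.0449), which was lost in 11 of 17 alternatives. For KIF16B the difference was 0.19 (95% interval -0.08 to 0.47) and for KIF1C -0.14 (-0.25 to -0.03), and neither passed.

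Genes that work with the motors were read from lists. Of 25 spindle partners 18 were tested, and all 18 were called lower with the extract (median log2 change -1.69), where 16.3% of all genes were. With carnosic acid 10 of the 18 were called lower (median -0.33), where 6.12% of all genes were. The 3 with the smallest adjusted p for the extract were the mitotic kinase CDK1 (-2.20 ± 0.08, SE), the midzone bundler PRC1 (-1.79 ± 0.08) and the passenger complex subunit INCENP (-1.66 ± 0.08). KIFC1, the minus-end-directed mitotic kinesin that the symbol rule leaves out, was in this list and fell by 1.56 ± 0.13 with the extract. Like the mitotic kinesins, all 18 read highest within the carnosic acid group on replicate 3.

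Of 19 adaptors and relatives of transport motors 13 were tested, 4 of them called higher and 1 lower with the extract (median 0.01), near the 21.8% and 16.3% of all genes. SPAG9, also called JIP4, a scaffold that links kinesin-1 and dynein to vesicles, rose by 1.23 ± 0.12 (log2, SE). KIFAP3, the cargo-binding subunit of kinesin-2, rose by 0.91 ± 0.11, while its motors KIF3A and KIF3B did not pass. KIFBP, which binds and blocks a subset of kinesins, fell by 0.58 ± 0.09. With carnosic acid SPAG9 (0.62) and KIFAP3 (0.57) were called higher as well, and MAPK8IP1, a JNK pathway scaffold that binds kinesin-1, was called lower (-0.46 ± 0.11, limma adjusted p = 0.0122).

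Cytoplasmic dynein moves cargo the other way along microtubules, with dynactin as its activator. Of 19 genes listed 8 were tested, all of them dynactin subunits or the regulators NDE1 and NDEL1, and 2 were called higher and 1 lower with the extract, near the 21.8% and 16.3% of all genes. NDE1 fell by 0.93 ± 0.07 (log2, SE) and its paralog NDEL1 rose by 0.86 ± 0.09. The dynactin subunit DCTN4 rose by 0.57 ± 0.09. None of the 11 tubulin genes listed had a row with a single symbol here.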

How the data were processed

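The authors deposited RMA expression values, taken here as log2 from their range, computed in R with oligo, per the labels' processing notes; no version is stated there. RMA tends to understate large changes, and its quantile step gives every array one distribution of probe values. The row values still differed in distribution, with array medians between 4.824 and 4.897. Row names came from the annotation of the platform (16098 rows with 1 symbol, 37519 without a single symbol and not used). All 16098 Entrez identifiers matched RefSeq. The brightest row per gene was kept, and the dimmest 25% of genes (3721) were left out, which left 11163. Group means were fitted to all 9 arrays with limma 3.58.1 in R 4.3.3 (lmFit, eBayes with a mean-variance trend), which was tested on simulated data. There, 1.2-fold changes were recovered in 14% of cases for the extract, 6% for carnosic acid and 14% between the treatments. For 1.5-fold changes the shares were 72%, 80% and 68%. Small changes that were not called may thus have been missed. Changes are differences of mean log2 values.

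Members, classes, lists and motifs were chosen with earlier results of these data known. Per-array values are given for members called with a log2 change of at least 0.5 in size and for the 5 with the highest mean level. Those of KLC1, and the range of KIF2B over the arrays, were added after their values were seen. Replicates share a number between groups, but deviations of same-numbered arrays correlated above 0.1 in 3 of 9 pairs (-0.219 to 0.238), so the numbers were not used as pairs. The number of arrays limits precision. Alternatives covered scaling, the dim filter, the row per gene, the variance model, the arrays fitted, a replicate block, class membership and each array left out. Tubulin, neuron, ciliated, fibroblast and leukocyte lists had 0, 1, 2, 0 and 2 tested genes.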

Additional observations from a re-analysis of the deposited data

How the results depend on the processing

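Counts of mitotic kinesins called lower were 12 to 13 with rosemary extract and 11 to 12 between the treatments under all alternatives, those that leave KIF2A or KIF4B out of the class included, and 0 mitotic kinesins were called higher in any. With carnosic acid the count of mitotic kinesins called lower was 2 to 9 with 1 array left out and 6 to 9 otherwise. Transport kinesins called higher with rosemary extract numbered 3 to 5 with 1 array left out. Transport kinesins called higher with carnosic acid numbered 1 to 3 with 1 array left out, 1 under cyclic loess and 0 when a gene's rows were averaged. Those called lower with carnosic acid went from 0 to 1 (KIF1C) under cyclic loess and median centring. Between the treatments, transport kinesins called higher numbered 1 to 2 with 1 array left out and 1 when a gene's rows were averaged. All genes called with carnosic acid numbered 1385 to 2124 with 1 array left out (1385 without carnosic acid replicate 1). The sign of KLC2 with carnosic acid turned with the mean of its rows (-0.14), and that of KIF24, which was not called, turned under median centring (-0.0031) and with 1 array left out, where it ran from -0.13 without carnosic acid replicate 3 to 0.18 without carnosic acid replicate 1. The difference between the treatments for KIF2B, also not called, was 1e-04 under median centring and ran from -0.067 without rosemary extract replicate 3 to 0.032 without rosemary extract replicate 2. Causes were not tested, other than that the KLC2 rows differ. Of 33 further changes under 0.1 in size that were not called, 23 turned sign in some alternative and 0 were called in any. Leaving KIF4B out of its class was chosen after seeing the data. With the replicate number as a block, the fits called 4226 genes with the extract, 2194 with carnosic acid and 1947 between them, against 4256, 2123 and 1933, and 13, 6 and 12 mitotic kinesins lower. With that block, transport kinesins called higher between the treatments rose from 2 to 3, with KLC1 gained (limma adjusted p = 0.0467, range over its alternatives 0.0127 to 0.397). KIF21B was gained with the extract (0.0372), while KIF14 with carnosic acid (0.0617) and KIF21A between the treatments (0.0583) lost their calls; over all alternatives these ran from 0.0107 to 0.190, 0.0133 to 0.168 and 0.0199 to 0.177. RMA gives no detection call, so members near the dim limit have no known signal over background.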
